A study of Mus musculus with 12 samples.

Results

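Transforming growth factor beta (TGF-beta) is a secreted cytokine that restrains the growth of B cells and can drive them into apoptosis. Described here are 10 mouse genes of this pathway in Eµ-Myc lymphoma cells, taken from a named list and matched by symbol. They are the ligands Tgfb1, Tgfb2 and Tgfb3, the latent binding family gene Ltbp2, the receptors Tgfbr1 and Tgfbr2, the signal transducer Smad3, and the feedback genes Smad7, Ldlrad4 and Skil. All 10 were found among the 56748 gene IDs of the count files, and all 10 were among the 13535 genes with enough counts to be tested.

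Poly(A) RNA was counted in 12 libraries of E_mu-Myc lymphoma, a B cell lymphoma line in which Myc is driven by the immunoglobulin heavy chain enhancer. The culture group holds 4 libraries of cells grown in vitro. The lymphatic group holds 4 libraries of lymphoma cells sorted from lymph nodes of C57BL/6J mice on day 11 after injection, after spread along lymphatic vessels, and the hematogenous group holds 4 libraries sorted on day 18 after spread through the blood. Route and day differ together and cannot be told apart, and tissue dissociation and sorting separate both lymph node groups from culture. The labels do not name the sort marker. Nor do they say that replicates came from different mice or dishes, so the p-values cover the spread among the libraries at hand, which may be technical. Cultured cells carry the tissue label Lymph node too, and grouping followed the titles.

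TGF-beta ligands are made as latent precursors that most members of the LTBP family tether to the extracellular matrix. The active ligand binds TGFBR2, which recruits and phosphorylates TGFBR1, and this kinase phosphorylates SMAD2 and SMAD3, which enter the nucleus with SMAD4. SMAD7 and LDLRAD4 dampen the pathway at the receptor, and the SnoN protein of Skil represses SMAD target genes. These feedback genes are themselves known to be induced by TGF-beta.

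Assigned counts ran from 5286775 to 25302016 per library. Values below are CPM, counts scaled by TMM library size to a common depth, as mean ± SD over the 4 libraries of a group, and changes are log2 differences ± SE from edgeR's quasi-likelihood fit of all 12 libraries. A gene was called at a Benjamini-Hochberg adjusted p under 0.05 over all genes tested. Tgfb3 had enough counts to be tested through its culture libraries only, and Ltbp2 through its hematogenous libraries only. The B cell identity of the cells showed in 10 B cell markers, which summed to 5520 to 5870 CPM in culture, 5570 to 6620 in lymphatic libraries and 7230 to 7850 in hematogenous ones. Ighm made up most of each sum, at means of 3150, 3670 and 3960 CPM in the same order. Blk had 0 counts in culture, and Ms4a1 was at 0.786 CPM there against 17.1 in lymphatic and 78.7 in hematogenous libraries. Not all 10 rose: against culture 4 were higher and 2 lower in lymphatic cells, and 8 higher and 0 lower in hematogenous cells. The 2 lower ones were Pax5 (548, 419 and 776 CPM in the same order) and Cd22 (420, 210 and 408 CPM). Between the routes 0 were higher and 4 lower in lymphatic cells, namely Pax5, Ebf1, Cd22 and Ms4a1. Markers of other cells were scarcer. In the order culture, lymphatic, hematogenous, the 12 T cell markers summed to 1.39 to 3.91, 22.7 to 103 and 7.37 to 19.2 CPM. The 11 macrophage and monocyte markers summed to 14.7 to 19.9, 31.7 to 89.3 and 19.5 to 27.4 CPM. Of these markers 6 T cell and 7 macrophage genes had 0 counts in culture, Cd3d, Trbc2 and Lyz2 among them, and none had 0 counts in either lymph node group. Both sums were highest in lymphatic 4. In bulk RNA, fewer cells that carry a transcript and less of it per cell cannot be told apart.

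The windows before the transcription start were taken from RefSeq for the members that changed and are in its promoter table. They are shown because these 4 genes changed in different directions between the groups. Each is the 250 bases before the start (build GRCm38.p6, gene strand, 5′ to 3′), with letter matches to a searched motif in capitals.
Tgfb2, chr1:186705990-186706239, minus strand: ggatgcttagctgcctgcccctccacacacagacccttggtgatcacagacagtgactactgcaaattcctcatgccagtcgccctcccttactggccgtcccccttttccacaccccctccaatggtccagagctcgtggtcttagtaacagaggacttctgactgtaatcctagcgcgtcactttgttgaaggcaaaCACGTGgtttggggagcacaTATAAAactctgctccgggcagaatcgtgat
Tgfb1, chr7:25686752-25687001, plus strand: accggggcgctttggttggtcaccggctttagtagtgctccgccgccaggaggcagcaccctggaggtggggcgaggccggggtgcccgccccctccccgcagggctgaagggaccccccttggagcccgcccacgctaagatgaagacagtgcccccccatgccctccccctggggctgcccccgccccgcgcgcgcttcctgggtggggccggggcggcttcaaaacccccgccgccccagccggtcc
Ltbp2, chr12:84876492-84876741, minus strand: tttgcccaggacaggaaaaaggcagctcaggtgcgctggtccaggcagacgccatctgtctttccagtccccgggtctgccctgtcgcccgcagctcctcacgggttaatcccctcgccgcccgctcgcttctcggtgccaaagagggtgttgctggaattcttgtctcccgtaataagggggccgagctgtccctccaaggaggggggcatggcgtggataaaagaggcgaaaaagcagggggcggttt
Tgfbr2, chr9:116175364-116175613, minus strand: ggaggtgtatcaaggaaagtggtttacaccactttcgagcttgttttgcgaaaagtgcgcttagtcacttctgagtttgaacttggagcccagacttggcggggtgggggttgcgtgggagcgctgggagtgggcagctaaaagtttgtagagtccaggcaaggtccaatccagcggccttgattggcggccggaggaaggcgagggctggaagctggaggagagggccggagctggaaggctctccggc
The motifs searched on both strands were CACGTG (the E-box bound by MYC), TGACGTCA (the cyclic AMP response element), GTCTAGAC and AGCCAGACA (SMAD binding elements) and TATAAA (the TATA box). Only the Tgfb2 window held any, with CACGTG starting 51 bases and TATAAA starting 31 bases before the start, and the matches do not overlap. Over 32851 windows of this length in the table, 6.02% held CACGTG, 12.4% TATAAA, 1.55% TGACGTCA, 0.301% AGCCAGACA and 0.167% GTCTAGAC. The bases G and C made up 75.2% of the Tgfb1 window, 61.6% of that of Ltbp2, 58.4% of that of Tgfbr2 and 53.6% of that of Tgfb2. A match is only a string of letters and shows no binding.

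The ligands moved apart. Cultured lymphoma cells carried transcripts of all 3, lymph node cells of either route had almost none of Tgfb3, and Tgfb2 fell in both lymph node groups, further in the hematogenous one. Tgfb1 was highest in hematogenous libraries. Nearly all ligand transcripts of that group were Tgfb1.

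Tgfb3, a ligand best known from palate and lung development, stood at 19.5, 18.2, 18.7 and 19.9 CPM in culture 1 to 4. It had 3, 2, 1 and 1 counts in lymphatic 1 to 4 and 2, 1, 0 and 1 counts in hematogenous 1 to 4, all at or under 0.203 CPM. The culture libraries lay within 1.09-fold of each other, and no lymph node library came near them. The fall was log2 −7.44 ± 0.329 in lymphatic cells (edgeR adjusted p = 9.07e-09) and −7.43 ± 0.359 in hematogenous cells (7.56e-09). With 7 and 4 counts left in the lymph node groups the size is loosely bounded, at a count ratio of culture over lymphatic of 193 (95% exact counting interval 93.2 to 482) and over hematogenous of 191 (74.4 to 704). Between the routes these few counts could not show a difference (hematogenous over lymphatic 1.01, interval 0.217 to 3.97). Intervals cover counting error only.

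Tgfb2, a ligand with low affinity for TGFBR2 in the absence of a co-receptor, stood at 26.9, 32.9, 29.8 and 29.7 CPM in culture 1 to 4. It was at 11.3, 10.6, 13.0 and 9.48 CPM in lymphatic 1 to 4 and at 2.72, 1.51, 1.86 and 2.65 CPM in hematogenous 1 to 4. The groups formed 3 separate steps with no overlap. Tgfb2 fell in lymphatic cells (log2 −1.42 ± 0.168, edgeR adjusted p = 3.18e-05) and in hematogenous cells (−3.79 ± 0.199, 1.52e-08), and the lymphatic level was 5.14-fold the hematogenous one (log2 2.36 ± 0.196, 8.30e-06).

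Tgfb1, the main ligand of lymphoid tissue, showed the opposite order of the lymph node groups. It stood at 49.2, 57.2, 42.2 and 37.0 CPM in culture 1 to 4, at 31.5, 21.9, 38.1 and 40.6 CPM in lymphatic 1 to 4, and at 78.0, 73.2, 75.1 and 70.7 CPM in hematogenous 1 to 4. Every hematogenous library lay above every other library, while the culture and lymphatic ranges overlapped. Tgfb1 rose 1.60-fold in hematogenous cells against culture (log2 0.68 ± 0.181, adjusted p = 0.0111) and was 2.25-fold higher there than in lymphatic cells (log2 lymphatic minus hematogenous −1.17 ± 0.181, 5.90e-04). Lymphatic cells did not pass the test against culture (−0.49 ± 0.181, 0.0604), but did without lymphatic 4 (−0.62 ± 0.165, 0.00848), without lymphatic 3 (adjusted p = 0.048) or without culture 4 (adjusted p = 0.0472). Platelets store TGF-beta1. The 7 platelet and megakaryocyte markers summed to 2.77 to 5.06 CPM in culture, 2.43 to 4.49 in lymphatic libraries and 3.36 to 9.77 in hematogenous ones, with Ppbp at 0 counts in all 12 and Pf4 at or under 0.168 CPM. Of that list 2 markers were tested. Itgb3 had the group order of Tgfb1, at 2.66 CPM in culture, 1.70 after lymphatic and 5.01 after hematogenous spread. It was called between the routes (lymphatic minus hematogenous −1.56, edgeR adjusted p = 0.0083). Gp1ba did not have this order, at 1.04, 1.17 and 0.931 CPM, and was not called between the routes (0.488, adjusted p = 0.562). T cells and macrophages also express Tgfb1, and their summed markers were lower in hematogenous than in lymphatic libraries, opposite to Tgfb1, and higher than in culture. The part of platelets, T cells and macrophages in the result was not tested.

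**Figure D1:**
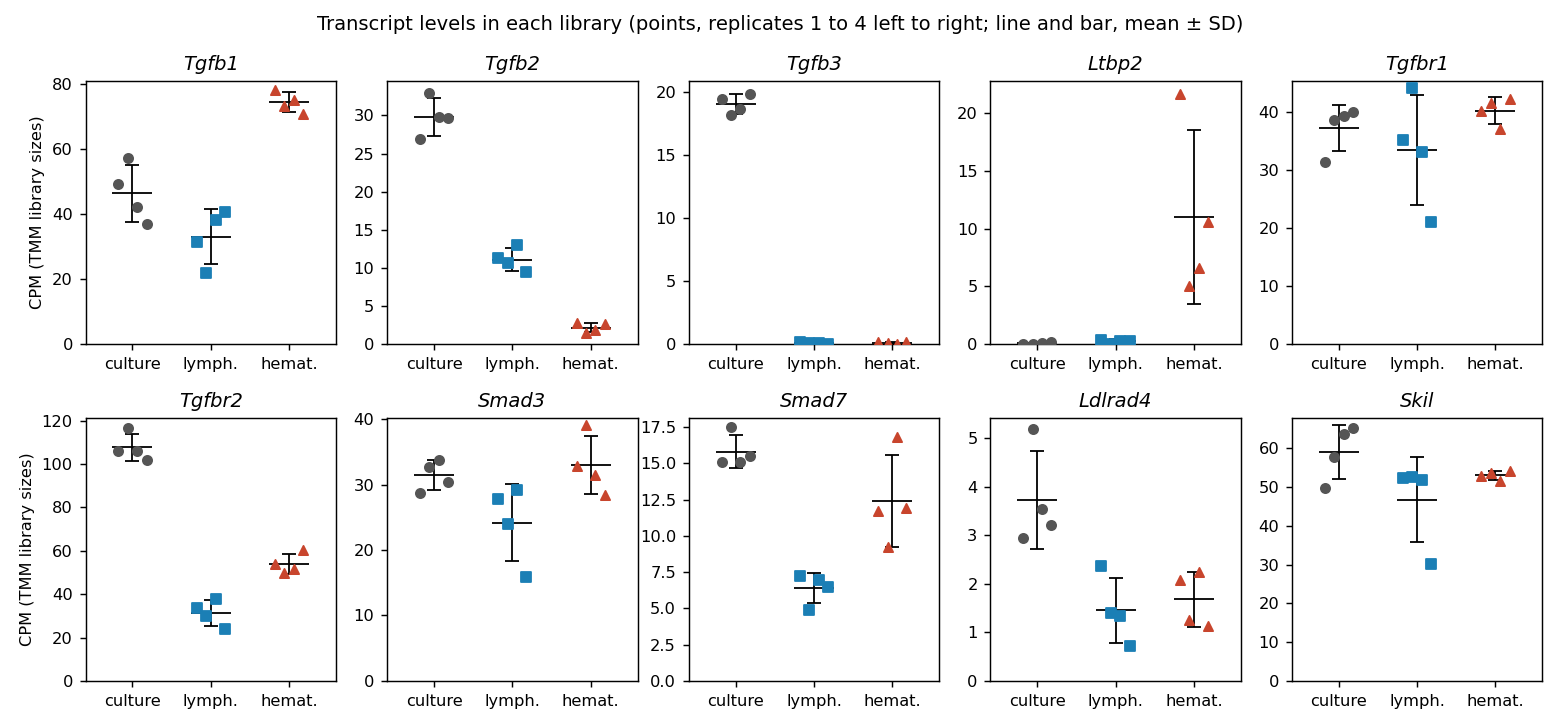
Transcript levels (CPM, linear axes from 0) of the 10 genes in each library, with the mean ± SD of 4 libraries per group as line and bar. Tgfb3 is near 20 CPM in culture and at or under 0.203 in every lymph node library, Tgfb2 forms 3 steps, and Ltbp2 reaches 5.04 to 21.7 CPM in hematogenous libraries alone.

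Dividing by exon length puts the ligands on one scale. On the level per kilobase of merged exons, Tgfb1 made up 45.8% ± 4.72, Tgfb2 25.8% ± 2.16 and Tgfb3 28.4% ± 3.32 (SD, n = 4) of ligand transcripts in culture. In lymphatic libraries the shares were 76.4% ± 5.32, 23.2% ± 5.21 and 0.378% ± 0.247, and in hematogenous libraries 97.3% ± 0.804, 2.49% ± 0.663 and 0.212% ± 0.167. The Tgfb1 share thus separated the groups without overlap, at 40.0% to 50.6% in culture, 70.0% to 83.0% in lymphatic cells and 96.5% to 98.1% in hematogenous cells. Summed over the 3 ligands the level was 20 ± 1.78 CPM per kilobase in culture, 8.50 ± 1.69 in lymphatic libraries and 15.1 ± 0.631 in hematogenous ones. With the longest coding transcript as the length the Tgfb1 shares became 64.7%, 86.8% and 98.7% in the same order of groups. The sum was then 32.8 ± 4.09, 17.4 ± 3.87 and 34.6 ± 1.44, so the lymphatic group was lowest with either length, while the order of culture and hematogenous libraries depends on the length chosen.

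Ltbp2 encodes an LTBP family protein of elastic fibres that, unlike its relatives, is not known to bind latent TGF-beta. It was close to undetected in culture and lymphatic libraries and present in every hematogenous library. It had 0, 0, 1 and 2 counts in culture 1 to 4 and 6, 0, 4 and 5 counts in lymphatic 1 to 4. Hematogenous 1 to 4 held 271, 60, 68 and 56 counts, or 21.7, 5.04, 6.64 and 10.6 CPM. The lowest hematogenous library was above the highest of the other groups (0.405 CPM), and hematogenous 1 was 4.31-fold the lowest of its own group. The count ratio of hematogenous over culture was 139 (95% exact counting interval 47.4 to 678, edgeR adjusted p = 2.90e-05) and over lymphatic 53.6 (32.1 to 96.5, adjusted p = 1.14e-04). Both intervals cover counting error only and leave out the spread among libraries. The fitted log2 change against culture, 6.90 with all libraries, was 6.31 without hematogenous 1 and 7.91 without culture 4, and that of lymphatic minus hematogenous went from −5.56 to −4.97 without hematogenous 1. Lymphatic over culture was 2.6 (0.736 to 14.0, adjusted p = 0.475), not distinguishable at this depth. Fibroblasts are a known source of Ltbp2. Of 10 fibroblast and stromal markers 9 had 0 counts in the hematogenous group, Col1a1, Col3a1 and Dcn among them, and the sum there was 0 to 0.084 CPM. The 8 endothelial markers summed to 77.6 to 81.1 CPM in culture, 80.7 to 115 after lymphatic and 139 to 168 after hematogenous spread, most of it Pecam1, which rose from 75.6 to 153 CPM in hematogenous cells (edgeR adjusted p = 2.27e-05). Cdh5 was at 1.89, 1.52 and 3.81 CPM in the same order and was called between the routes (lymphatic minus hematogenous −1.35, adjusted p = 0.0231), while Lyve1, Prox1, Emcn and Flt1 had 0 counts in the hematogenous group. Granulocyte markers, 7 in number, summed to 0 to 0.575 CPM in culture, 0.202 to 0.63 in lymphatic libraries and 0.588 to 2.40 in hematogenous ones with hematogenous 1 highest. The part of fibroblasts, endothelial cells and granulocytes in the result was not tested.

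**Figure D2:**
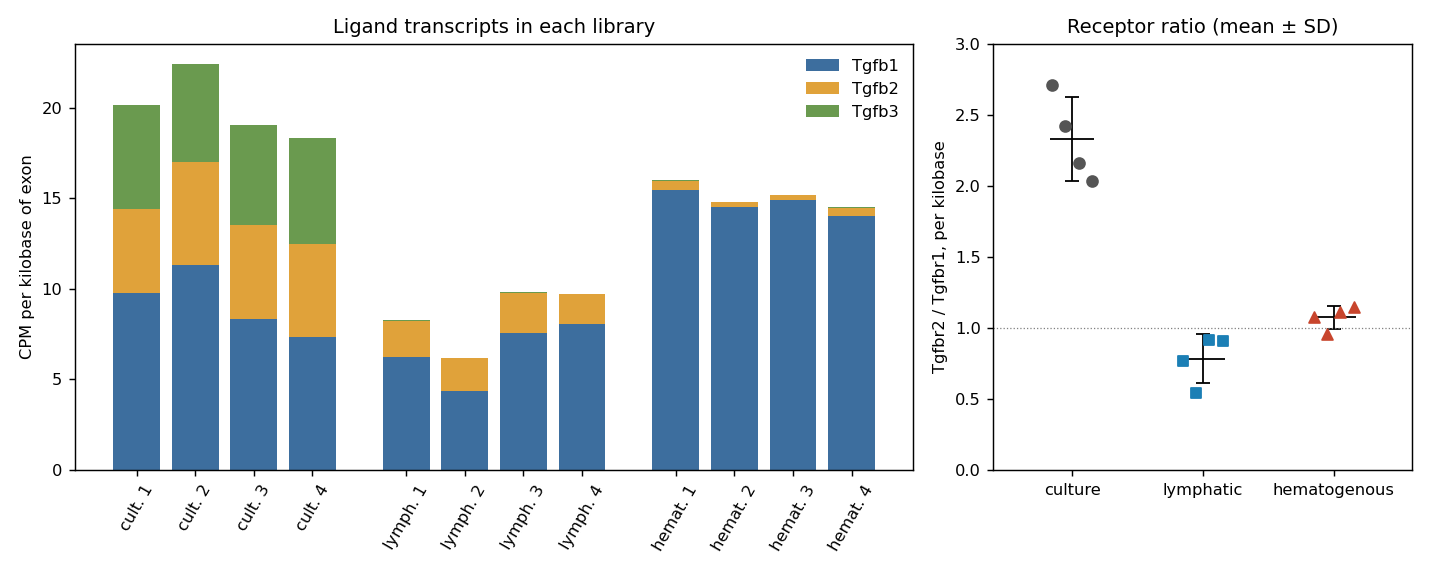
Left, ligand transcripts per library as CPM per kilobase of merged exons, stacked by gene; right, the ratio of Tgfbr2 to Tgfbr1 per kilobase in each library with mean ± SD of 4 libraries. Tgfb1 makes up 40.0% to 50.6% of the bar in culture and 96.5% to 98.1% in hematogenous libraries, and the receptor ratio drops from 2.04 to 2.71 in culture to 0.541 to 1.15 in lymph node libraries.

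The receptors parted in the same way in both routes: the ligand-binding receptor Tgfbr2 fell and its partner kinase Tgfbr1 was not called. Tgfbr2 stood at 106.2, 116.7, 106.1 and 101.9 CPM in culture 1 to 4. It was at 33.8, 29.9, 37.9 and 23.96 CPM in lymphatic 1 to 4 and at 54.1, 49.8, 51.6 and 60.5 CPM in hematogenous 1 to 4. Culture was highest, hematogenous intermediate and lymphatic lowest, with no overlap. Tgfbr2 fell in lymphatic cells (log2 −1.78 ± 0.137, edgeR adjusted p = 6.22e-07) and in hematogenous cells (−0.998 ± 0.134, 6.87e-05), and differed between the routes (lymphatic minus hematogenous −0.78 ± 0.135, 0.00122). T cells express Tgfbr2, and their summed markers were highest in the lymphatic group, where Tgfbr2 was lowest. The part of T cells in the result was not tested.

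Tgfbr1 was at 31.3 to 39.9 CPM in culture, 21.1 to 44.1 in lymphatic libraries and 37.0 to 42.1 in hematogenous ones, all overlapping. Its change was log2 −0.16 ± 0.180 in lymphatic cells (edgeR adjusted p = 0.566) and 0.11 ± 0.181 in hematogenous cells (0.709). Lymphatic 4 was lowest, at 21.1 CPM, and without it the first value was 0.0094 ± 0.118. Per kilobase of merged exons the ratio of Tgfbr2 to Tgfbr1 was 2.33 ± 0.297 in culture, 0.783 ± 0.175 in lymphatic libraries and 1.07 ± 0.0821 in hematogenous ones (SD, n = 4). The lymphatic and hematogenous ratios did not overlap either, at 0.541 to 0.916 against 0.958 to 1.15.

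Smad3, which carries the receptor signal to the nucleus, was not called in any comparison. It was at 28.7 to 33.8 CPM in culture, 15.9 to 29.1 in lymphatic libraries and 28.4 to 39.1 in hematogenous ones. Lymphatic libraries were lower on average, by −0.38 ± 0.173 against culture (edgeR adjusted p = 0.125) and −0.45 ± 0.173 against hematogenous cells (0.0747). Leaving out lymphatic 3 brought the latter past the threshold (−0.55 ± 0.180, 0.0426), and leaving out lymphatic 4 did not (−0.31 ± 0.121, 0.0619).

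Of the feedback genes Smad7 fell in lymphatic cells alone among the calls, Ldlrad4 fell in both lymph node groups, and Skil was not called. Smad7, the inhibitory SMAD that competes at the receptor, stood at 15.1, 17.5, 15.1 and 15.5 CPM in culture 1 to 4. It was at 7.22, 4.90, 6.92 and 6.45 CPM in lymphatic 1 to 4 and at 11.7, 9.24, 16.8 and 11.9 CPM in hematogenous 1 to 4. The lymphatic libraries lay below all others, and hematogenous 3 lay within the culture range. Smad7 fell against culture in lymphatic cells (log2 −1.31 ± 0.191, edgeR adjusted p = 1.96e-04), did not pass in hematogenous cells (−0.35 ± 0.189, 0.205), and differed between the routes (lymphatic minus hematogenous −0.97 ± 0.192, 0.00299).

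Ldlrad4, a membrane protein that keeps SMADs from the receptor, was low throughout, at 2.95, 5.20, 3.54 and 3.22 CPM in culture 1 to 4. It was at 2.36, 1.39, 1.34 and 0.729 CPM in lymphatic 1 to 4 and at 2.08, 1.26, 2.25 and 1.14 CPM in hematogenous 1 to 4, in each case below every culture library. It fell in lymphatic cells (log2 −1.34 ± 0.348, edgeR adjusted p = 0.0115) and in hematogenous cells (−1.09 ± 0.358, 0.035). These tests rest on 129, 100 and 70 counts over the 4 libraries of culture, lymphatic and hematogenous cells. The hematogenous call was lost without culture 2 (−0.91, adjusted p = 0.106), culture 3 (0.0638), culture 4 (0.0508), hematogenous 2 (0.101) or hematogenous 4 (0.0885). Exons of Fam210a overlap Ldlrad4 on the opposite strand, and whether counting used strand is not given in the sources used here. Such reads may be shared or lost.

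Skil was at 49.8 to 65.2 CPM in culture, 51.8 to 52.5 CPM in lymphatic 1 to 3 and 51.5 to 54.0 CPM in hematogenous libraries, with lymphatic 4 at 30.2 CPM. No change passed the test (−0.34 ± 0.162 in lymphatic, edgeR adjusted p = 0.145, and −0.16 ± 0.163 in hematogenous cells, 0.535), and the lymphatic value was −0.18 ± 0.0953 without lymphatic 4.

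**Figure D3:**
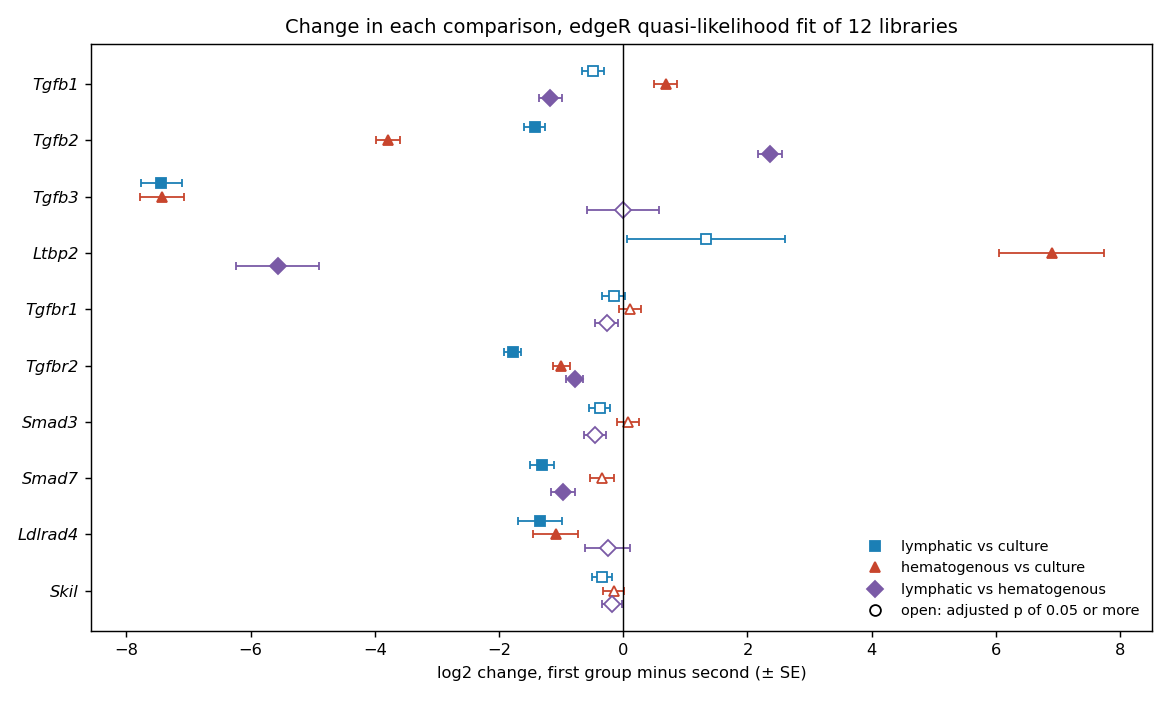
Log2 change of each gene in the 3 comparisons (first group minus second) with SE, filled where the adjusted p is under 0.05. Tgfb3 lies at −7.44 and −7.43 against culture, Ltbp2 at 6.90 in hematogenous cells, and Tgfbr1, Smad3 and Skil have open symbols throughout.

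Counted together, 0 members rose and 5 fell in lymphatic cells against culture, where 26.4% of all genes tested were called (13.4% higher and 13.0% lower). In hematogenous cells 2 rose and 4 fell, where 27.8% of all genes were called, 13.9% in each direction. Between the routes 1 member was higher and 4 were lower in lymphatic cells, where 22.3% of all genes were called (11.4% higher and 10.9% lower). The median member changed by −0.90, −0.25 and −0.36 in these comparisons, against 0.04, −0.0007 and 0.03 over all genes. Libraries of the groups compared did not overlap for 5, 6 and 5 members, against 30.1%, 43.6% and 24.6% of all genes. The comparisons with culture share its 4 libraries. Members were chosen with earlier results of these data known, so the counts are a description and may partly follow from that choice.

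The genes of most similar profile were found by the Pearson correlation of log2 CPM over the 12 libraries, among 8559 genes of at least 10 CPM in a group, and are given as a description, since group differences shape every such value. Closest to Tgfb3 were Lama5, a laminin chain (r = 0.992, with mean CPM of 15, 0.107 and 0.02 in the same order of groups as above), the SRC family kinase gene Fyn (0.990, 126, 41.7 and 41.5 CPM) and the zinc transporter gene Slc39a6 (0.988). Closest to Tgfbr2 were Irs2, an adaptor of insulin receptor signals (r = 0.994, 62.8, 15.4 and 26 CPM), the kinase gene Ptk2b (0.985) and the MAP kinase phosphatase gene Dusp4 (0.982, 15.7, 2.41 and 5.01 CPM). Tgfb2 went with Prelid3a (0.977), Bpnt1 (0.975) and the phosphatase subunit gene Ppp2r5b (0.974, 76.2, 23.3 and 7.77 CPM). Tgfb1 went with the mitochondrial carrier gene Ucp2 (0.964, 1330, 915 and 1980 CPM), Sash3 (0.962) and the adaptor gene Grb2 (0.957). Ltbp2 went with Mtss1 (0.978, 97.6, 95.1 and 216 CPM), Tk2 (0.966) and Racgap1 (0.964), Smad7 with Cytip (0.956), Laptm5 (0.945) and Prkaca (0.945), and Ldlrad4 with Stat3 (0.921) and Zdhhc9 (0.919).

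The wider pathway was read from a list of 55 other genes, of which 41 were tested. This list too was chosen with earlier results of these data known, which may shape its shares. In lymphatic cells 3 rose and 13 fell against culture (39.0% called against 26.4% of all genes, median −0.29). In hematogenous cells 5 rose and 10 fell (36.6% against 27.8%, median −0.14). Between the routes 4 were higher and 6 lower in lymphatic cells (24.4%, near the 22.3% of all genes, median 0.07). These counts depend on single libraries. The 13 became 5 without culture 1 or culture 2 and 7 without culture 3 or culture 4, and the 3 that rose became 5 without lymphatic 4. The 10 became 6 without culture 2 or hematogenous 3, and the 4 became 2 without hematogenous 1, 3 or 4. With replicate number as a block the 13 became 8 and the 4 became 2.

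Receptors of the wider family included genes that fell in both routes. Bmpr2, the type II receptor for bone morphogenetic proteins, went from 53.1 ± 6.08 CPM in culture to 12.8 ± 4.22 in lymphatic libraries and 7.34 ± 1.72 in hematogenous ones (log2 −2.05 ± 0.237, edgeR adjusted p = 2.78e-05, and −2.85 ± 0.253, 1.41e-06). Bmpr1a, its type I partner, went from 66.4 ± 2.16 to 40.0 ± 9.09 and 17.2 ± 3.53 CPM (−0.73 ± 0.173, 0.00667, and −1.96 ± 0.182, 2.31e-06). Both were higher in lymphatic than in hematogenous cells (0.81 ± 0.246, 0.0314, and 1.23 ± 0.179, 4.03e-04), the same order as Tgfb2. The activin type I receptor gene Acvr1b rose in hematogenous cells, from 8.42 ± 1.11 to 18.1 ± 4.22 CPM (1.09 ± 0.202, 9.33e-04), with lymphatic cells at 8.29 ± 1.65. Acvr2a fell in lymphatic cells (−0.67 ± 0.234, 0.0489) and Acvr2b, outside the naming rule, in hematogenous cells (−1.17 ± 0.360, 0.0251).

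Of 10 genes of latency and activation only 5 had enough counts to be tested. Of these 5, 4 fell in lymphatic and 2 in hematogenous cells, where 13.0% and 13.9% of all genes fell. Itgav, an integrin chain that takes part in releasing active TGF-beta, was at 73.2 ± 5.53 CPM in culture, 51.3 ± 12.8 after lymphatic and 39.3 ± 6.14 after hematogenous spread (log2 −0.51 ± 0.178, edgeR adjusted p = 0.0467, and −0.90 ± 0.180, 0.00179). The other integrin chain genes of this list, Itgb6 and Itgb8, were too low to test, at or under 0.0268 and 0.0830 CPM on average in every group. Nrros, which anchors latent TGF-beta on leukocytes, fell from 153.2 ± 12.3 to 112 ± 18.7 CPM in lymphatic cells (−0.45 ± 0.125, 0.0158), and the precursor-cleaving protease gene Furin from 12.3 ± 1.90 to 6.84 ± 2.79 CPM (−0.86 ± 0.262, 0.0269). Lrrc32, which displays latent TGF-beta on the cell surface and was named after its values were seen, was low in culture at 2.14 CPM and fell in both groups (−1.56 ± 0.382 and −2.09 ± 0.433). Ltbp4 was lower in lymphatic than in hematogenous cells, at 12.8 ± 6.81 against 26.6 ± 7.09 CPM (−1.08 ± 0.359, 0.0449).

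Among SMAD transducers the adaptor gene Zfyve9, whose protein presents SMADs to the receptor, fell from 21.9 ± 1.56 CPM to 12.5 ± 6.04 in lymphatic libraries and 5.59 ± 0.615 in hematogenous ones (log2 −0.80 ± 0.268, edgeR adjusted p = 0.0401, and −1.97 ± 0.289, 1.40e-04). Smad9 fell in both groups as well (−0.77 ± 0.256, 0.0384, and −0.92 ± 0.264, 0.0173), and the receptor-associated gene Tgfbrap1 in lymphatic cells (−0.55 ± 0.188, 0.0441). This role had 6 tested genes, of which 0 rose, 3 fell in lymphatic cells and 2 fell in hematogenous cells. That is 50.0% and 33.3% called, against 26.4% and 27.8% of all genes, of which 13.0% and 13.9% fell. Smad2, Smad4 and Smad5 were not called in any comparison. Against culture Smad2 changed by 0.14 ± 0.132 after lymphatic spread (edgeR adjusted p = 0.477) and 0.094 ± 0.133 after hematogenous spread (0.662). Smad4 changed by −0.24 ± 0.114 (0.133) and −0.21 ± 0.115 (0.214). Of 12 tested inhibitors and repressors 1 rose and 1 fell in lymphatic cells and 0 rose and 2 fell in hematogenous cells, 16.7% called in each against 26.4% and 27.8% of all genes. The ubiquitin ligase gene Smurf1 fell in both (−0.63 ± 0.196, 0.0282, and −0.66 ± 0.199, 0.0224), Strap rose in lymphatic cells (0.31 ± 0.109, 0.0475), and Smad6, outside the naming rule, fell in hematogenous cells (−1.25 ± 0.441, 0.0479). Between the routes Fkbp1a was higher (0.38 ± 0.122, 0.0382) and Nedd4l lower (−0.75 ± 0.194, 0.0144) in lymphatic cells.

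Of 11 tested target genes 2 were higher and 2 lower in lymphatic cells (36.4% called against 26.4% of all genes), and 4 were higher and 1 lower in hematogenous cells (45.5% against 27.8%). Klf10, an early TGF-beta response gene, rose from 20.1 ± 2.69 CPM to 33.1 ± 3.04 and 39.8 ± 6.44 (log2 0.72 ± 0.146, edgeR adjusted p = 0.00243, and 0.98 ± 0.147, 1.76e-04), and its relative Klf11, named after its values were seen, rose in hematogenous cells (0.84 ± 0.184, 0.00335). The cell cycle inhibitor gene Cdkn1a fell from 6.58 ± 1.02 to 3.53 ± 0.457 and 2.69 ± 1.09 CPM (−0.89 ± 0.261, 0.0214, and −1.28 ± 0.275, 0.00283). The genes of apoptosis inducers parted by route. Bmf was at 26.5 ± 2.28 CPM in culture, 6.15 ± 1.86 in lymphatic libraries and 24.2 ± 10.1 in hematogenous ones (lymphatic minus culture −2.12 ± 0.305, 1.79e-04, and lymphatic minus hematogenous −1.98 ± 0.305, 5.83e-04). Bcl2l11, which encodes BIM, was at 57.6 ± 2.52, 63.7 ± 7.13 and 90.3 ± 11.2 CPM and rose in hematogenous cells (0.65 ± 0.118, 8.55e-04). Tgfbi, also outside the naming rule, had 0 counts in culture and 1.21 to 2.20 CPM in lymphatic and 0.840 to 2.15 CPM in hematogenous libraries, at least 22-fold and 19.3-fold higher against a floor of 3 counts over the culture group. Macrophages are a known source of Tgfbi, and Lyz2 of the macrophage list went from 0 counts to 27.6 and 11.7 CPM. Of 6 tested markers of that list 4 were higher and 2 lower in lymphatic cells and 3 higher and 2 lower in hematogenous cells. Those lower were Csf1r (8.52, 3.75 and 1.49 CPM) and Itgam (4.88, 0.534 and 0.808 CPM). The part of these cells was not tested. Ccn2, Id1 and Pmepa1, common TGF-beta targets in adherent cells, were too low to test, at or under 0.130 CPM on average in every group.

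**Figure D4:**
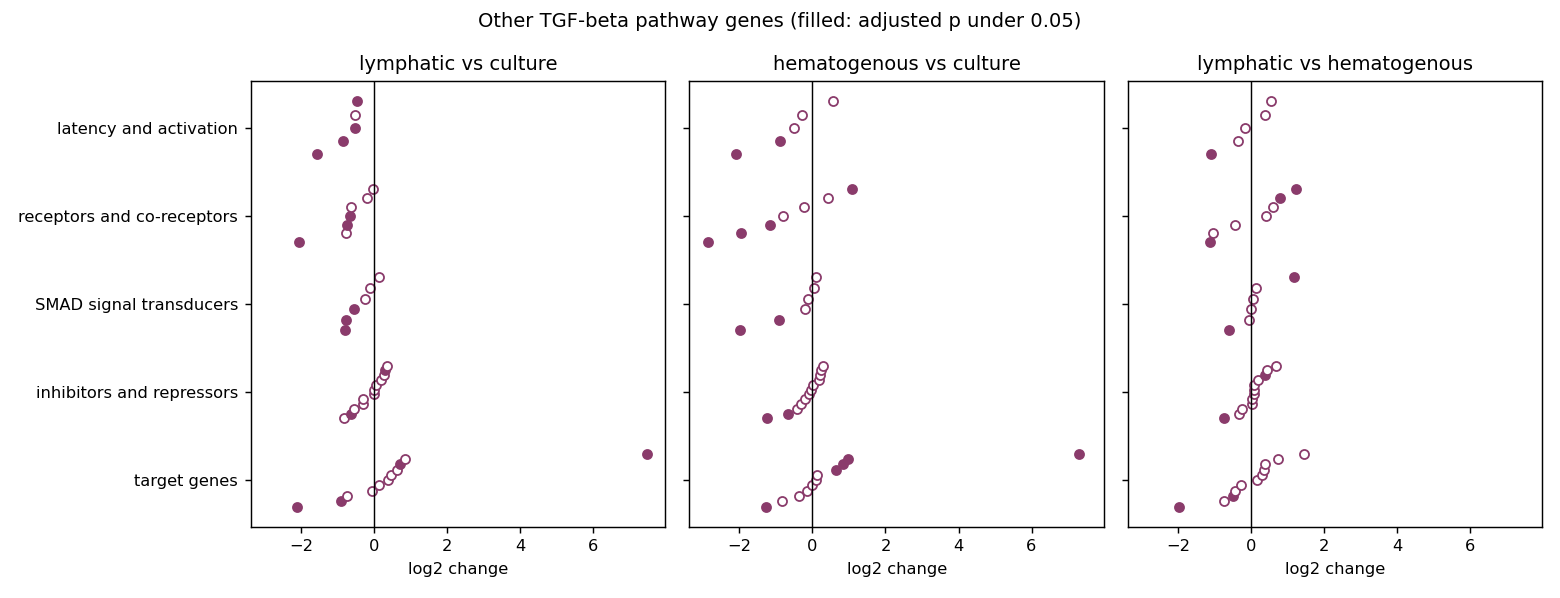
Log2 change of the 41 tested pathway genes in the 3 comparisons, by role, filled where the adjusted p is under 0.05. Smad9, Zfyve9 and Tgfbrap1, the 3 genes of the SMAD transducer role called in lymphatic cells against culture, lie left of 0. So do the 4 latency genes called there. The point near 7.4 against culture is Tgfbi, a fitted value against 0 counts and no bound.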

How the data were processed

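Poly(A) RNA-seq libraries (stranded, single-end, per the labels' protocols) of 12 samples were grouped by their titles. Reads were processed with FastQC 0.11.9, Trimmomatic 0.39, HISAT2 2.1.0 and HTSeq 2.0.2 on build GRCm39, per the submitters' processing notes. Each sample's deposited table lists unnormalized counts by gene ID. The 5 summary lines, 30.3% to 36.5% of reads, were left out. Symbols came from an older mouse annotation and were found for 91.8% of IDs, with 98.8% or more of counts. Exon lengths came from GENCODE M21. The only positions given are those of the promoter windows, on GRCm38.p6, a different build from the GRCm39 of the counts. Promoter windows were found for 6 members.

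Genes passing filterByExpr were tested with edgeR 4.0.16 (R 4.3.3), group only, 9 residual degrees of freedom, TMM scaling, two-sided. SE was taken from the change and its F value. On simulated counts the procedure was tested with known changes. Alternatives were DESeq2 1.42.0, limma-voom 3.58.1, RLE scaling, no filter, fits of 2 groups, a replicate block, leaving out each library, and leaving out lymphatic 4 with culture 4. Members and lists were chosen with earlier results of these data known. Pathway genes were named per comparison and role, up to 3 called genes of smallest adjusted p with at least 5 CPM in the higher group, and 3 similar profiles per called member. Some genes under these rules are not reported here.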

Additional observations from a re-analysis of the deposited data

Results flagged for a closer look

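In 3 of 30 groups of 4 libraries 1 library stood apart by Dixon's criterion at the 95% level, where chance gives about 1 in 20 groups. These were Tgfb3 in lymphatic 1 (0.203 CPM, which is 3 counts), Tgfbr1 in culture 1 (31.3 CPM) and Skil in lymphatic 4 (30.2 CPM). The change against culture differed between the routes for 5 members (lymphatic minus hematogenous, edgeR), namely Tgfb1 (−1.17), Tgfb2 (2.36), Ltbp2 (−5.56), Tgfbr2 (−0.78) and Smad7 (−0.97).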

How the results depend on the processing

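Of the 16 member calls, Tgfb2, Tgfb3, Tgfbr2, Smad7 and Ldlrad4 in lymphatic cells, Tgfb1, Tgfb2, Tgfb3, Ltbp2 and Tgfbr2 in hematogenous cells, and the 5 between the routes held under every alternative run. Ldlrad4 in hematogenous cells was lost under 5 left-out libraries. Tgfb1 in lymphatic cells passed with DESeq2 (adjusted p = 0.0422), without the filter (0.0405) and without lymphatic 4 and culture 4 together (0.00514). Signs turned only where nothing was called, for Tgfb3 between the routes (0.0079 with the replicate block, 0.17 without lymphatic 4 and culture 4, and −0.43 to 0.38 with 1 library left out), Tgfbr1 in lymphatic cells (0.045 without both, and −0.32 to 0.0094) and Smad3 in hematogenous cells (−0.018 to 0.14). No pairing by replicate number was seen, with correlations of deviations at −0.181 to 0.0919 and 0 of 12 over 0.1. In 3 of 24 comparisons the correlation was highest with the own number. These values do not show how the libraries were prepared. With the replicate block 2961, 3341 and 2309 genes were called against 3570, 3760 and 3012 (lymphatic, hematogenous, between routes), and the pathway list had 8 lower in lymphatic cells and 2 higher between the routes. Fits of 2 groups called 6344 genes in hematogenous cells and 1734 between the routes, and in the pathway list 6 lower in lymphatic cells, and 2 higher and 2 lower between the routes. Leaving out 1 library gave 2664 to 4908, 3125 to 5931 (highest without lymphatic 4) and 2002 (without hematogenous 1) to 4333 genes. For the pathway list it gave 2 to 5 higher and 5 to 15 lower in lymphatic cells, 5 to 7 and 6 to 12 in hematogenous cells, and 2 to 6 and 4 to 7 between the routes. The cause was not tested. CPM without TMM factors moved every member level by less than 1 SD. Low counts limit Tgfb3 in lymph node cells, Ltbp2 outside hematogenous cells, and Ldlrad4. In the fits of 2 groups Ltbp2 was not tested in lymphatic cells against culture, nor Tgfb3 between the routes.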
